A study of Mus musculus with 32 samples.

Results

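The 41 genes described here encode the mTOR complexes, the proteins that switch mTORC1 on and off, and its immediate outputs, out of 27998 genes in a single-cell RNA-seq table of the mouse median eminence (ME). They were taken by gene symbol from a fixed list whose rule used no measured value, and all 41 symbols were found. The list was chosen with earlier results of these data known. The ME is the part of the basal hypothalamus that lies outside the blood-brain barrier and touches the pituitary portal vessels. The study used C57B/L6 mice aged 40 to 47 days. It compared the ME of mice fasted overnight (16 h) with that of mice fasted in the same way and then refed. Refed mice were given normal chow again for 1 h. Each group had 5 mice, whose cells were pooled, sorted for live nucleated cells and divided into 2 droplet libraries. The table holds 5982 cells and 29288898 UMIs (unique molecular identifiers, each standing for 1 captured transcript) with a median of 3837 UMIs per cell. Each barcode carries a final number (1, 2, 3 or 4), and no source used here says which library or feeding group a number stands for, so the fasted and refed mice were not compared. All cells were treated as 1 sample, no test between conditions was possible, and values are given for each barcode number to show their spread. The 4 numbers held 1642, 1493, 1359 and 1488 cells and 7806887, 6508038, 7243332 and 7730641 UMIs, and 21 barcode sequences were shared by more than 1 number.

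mTOR is a kinase that works in a pair of complexes: mTORC1, which holds raptor and drives protein synthesis and growth, and mTORC2, which holds rictor and acts on Akt and the kinase Sgk1. Amino acids recruit mTORC1 to the lysosome through the Rag GTPases and the Ragulator complex, insulin and growth factors relieve the brake that the TSC proteins place on the GTPase Rheb, and energy or stress signals act through AMPK, the sestrins and Ddit4. In the oligodendrocyte lineage the pathway is known for its part in the differentiation of precursors and in myelination.

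Cells were grouped by marker genes into 13 types, 3 of them stages of the oligodendrocyte lineage: oligodendrocyte precursor cells (OPCs, 305 cells, 1240582 UMIs), differentiating OPCs (diffOPCs, 139 cells, 1281112 UMIs) and mature oligodendrocytes (MOLs, 658 cells, 4477235 UMIs). The 8 MOL markers summed to 20193 counts per 1000000 UMIs (CPM) in MOLs, 2868 in diffOPCs and 186 in OPCs, and the 7 diffOPC markers to 7545 CPM in diffOPCs and 884 in OPCs. In the other 10 types the MOL markers summed to between 182 CPM (mural cells) and 670 CPM (endothelial cells). Single genes made up much of the highest sums. Mal gave 493 CPM in endothelial cells, and Aspa gave 350 of the 508 CPM in vascular and leptomeningeal cells. Another 426 cells carried no name and 3 cells with over 10% haemoglobin UMIs were set aside. None of the 41 genes was among the 2000 variable genes that defined the clusters. A CPM value below is the sum of a gene's UMIs over all cells of a type per 1000000 UMIs of that type, its 95% interval covers counting error only, and a gene was called higher or lower where log2 of (CPM + 10) differed by at least 1 and the groups compared held at least 50 UMIs of it.

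Within the oligodendrocyte lineage, Rictor was higher in diffOPCs than in OPCs or MOLs, accompanied by Flcn and Irs1 (the plot of 8 genes by stage). Rictor, which encodes the defining subunit of mTORC2, was at 182, 133, 176 and 196 CPM in the diffOPCs of barcode numbers 1 to 4. OPCs of the same numbers held 30.3, 28.7, 51.6 and 34.0 CPM of Rictor, and MOLs 28.2, 26.3, 31.9 and 41.8 CPM. The lowest diffOPC value was therefore above every OPC and MOL value. Over all cells Rictor reached 174 CPM in diffOPCs (223 UMIs in 100 cells) and 34.7 CPM in OPCs, a ratio of 5.02 (95% interval 3.61 to 7.13; log2 ratio 2.04). In MOLs it was at 32.6 CPM, 0.187 times the diffOPC level (0.151 to 0.232). No other of the 13 types held more than the 34.7 CPM of OPCs.

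**Figure D1:**
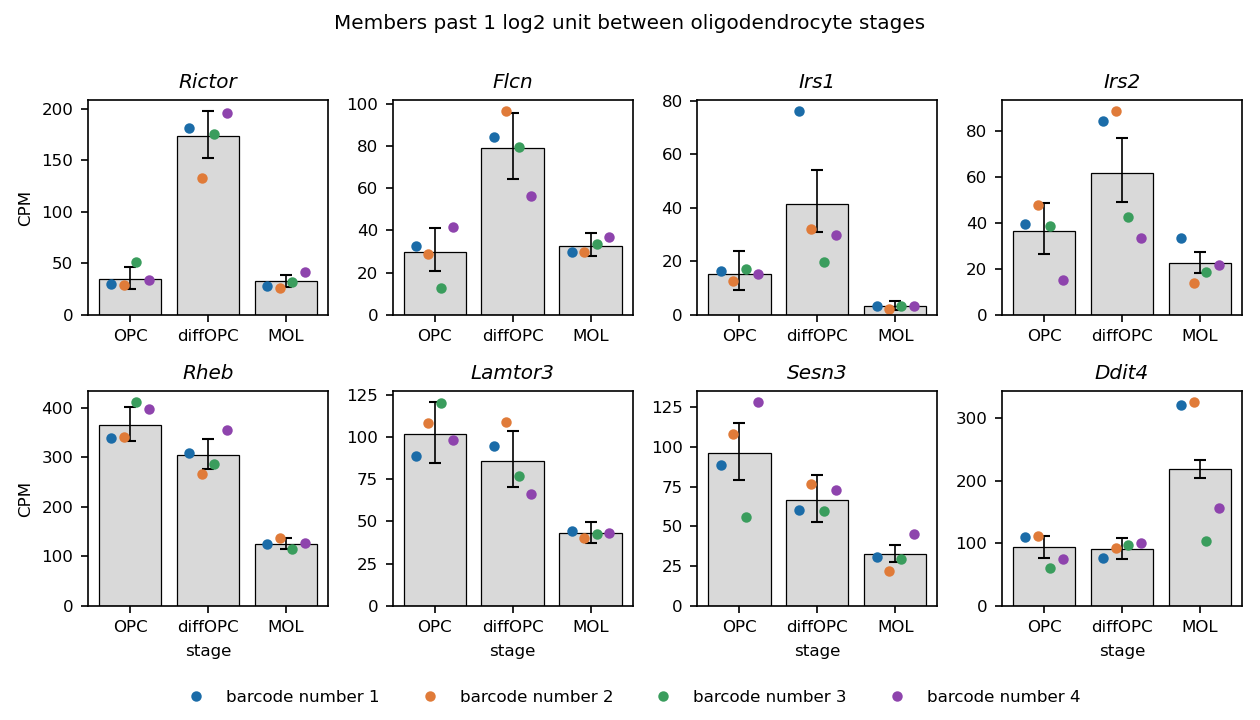
CPM (vertical axis) of 8 genes in OPCs, diffOPCs and MOLs (horizontal axis); bars are all cells of a stage with the exact Poisson 95% interval, and points are the 4 barcode numbers. Rictor stood at 174 CPM in diffOPCs against 34.7 CPM in OPCs and 32.6 CPM in MOLs, whereas the MOL points of Ddit4 were spread from 104 to 326 CPM.

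Flcn encodes folliculin, which acts on the Rag GTPases at the lysosome and controls the transcription factors Tfeb and Tfe3. Flcn was at 84.2, 96.7, 79.5 and 56.5 CPM in diffOPCs of numbers 1 to 4 and at 32.6, 28.7, 12.9 and 41.6 CPM in OPCs. Each diffOPC value was above each OPC value, though number 4 showed the smallest difference (log2 ratio 0.37). The ratio over all cells was 2.64 (1.80 to 3.96; 78.8 against 29.8 CPM). MOLs held 32.8 CPM, 0.416 times the diffOPC level (0.321 to 0.542), a difference that fell just under the threshold without number 1 (log2 ratio -0.98) or 2 (-0.96) and to -0.80 in cells thinned to 1000 UMIs.

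Irs1 and Irs2 encode the adaptors that carry the signal from the insulin and IGF1 receptors to PI3-kinase. Irs1 was at 76.3, 32.2, 19.9 and 29.9 CPM in diffOPCs, 16.3, 12.7, 17.2 and 15.1 CPM in OPCs and 3.42, 2.29, 3.36 and 3.21 CPM in MOLs. The 3 stages did not overlap, but the diffOPC level rested largely on number 1: over all cells the ratio to OPCs was 2.70 (1.57 to 4.83; log2 ratio 1.02), and the log2 ratio was 0.56 without number 1 and 0.93 with the lineage cells clustered by K-means, both under the threshold. Against MOLs Irs1 differed more, at 3.13 CPM in MOLs and 41.4 CPM in diffOPCs (log2 ratio -1.97). Irs2 was at 84.2, 88.7, 42.6 and 33.2 CPM in diffOPCs and 33.4, 13.7, 18.5 and 21.7 CPM in MOLs, where numbers 1 and 2 were high in diffOPCs and number 4 lay just under the highest MOL value of 33.4 CPM. MOLs held 22.3 CPM of Irs2, 0.362 times the 61.7 CPM of diffOPCs (0.267 to 0.493), and OPCs held 36.3 CPM, which was not called. Without number 2 the log2 ratio of MOLs to diffOPCs was -0.92, under the threshold. The MOL markers in diffOPCs summed to 2426, 1540 and 3908 CPM in numbers 1 to 3 and 3304 CPM in number 4, higher in the numbers where Irs2 was low, and their part in its level was not tested.

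The sequences upstream of these 4 genes are shown because these were the genes at least 1 log2 unit above the median type in diffOPCs. For Irs1 that value fell from 1.52 to 0.80 without number 1, and for Flcn from 1.16 to 0.90 in thinned cells, both under the threshold. Each is the RefSeq promoter window on GRCm38.p6, 300 bases that run from 250 before the annotated start to 50 after it, read on the gene's strand. Capitals mark a CRE (TGACGTCA) or an E-box (CACGTG), both of which read the same on either strand. The windows are chr15:6708131-6708430 (plus strand) for Rictor, chr11:59809990-59810289 (minus strand) for Flcn, chr1:82291390-82291689 (minus strand) for Irs1 and chr8:11008880-11009179 (minus strand) for Irs2.
Rictor: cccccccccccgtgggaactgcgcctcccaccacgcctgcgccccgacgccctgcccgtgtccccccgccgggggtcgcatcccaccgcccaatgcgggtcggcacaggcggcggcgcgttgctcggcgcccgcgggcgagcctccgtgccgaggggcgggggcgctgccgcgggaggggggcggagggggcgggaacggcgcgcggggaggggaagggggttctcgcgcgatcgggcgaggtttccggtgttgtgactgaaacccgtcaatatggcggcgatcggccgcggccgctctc
Flcn: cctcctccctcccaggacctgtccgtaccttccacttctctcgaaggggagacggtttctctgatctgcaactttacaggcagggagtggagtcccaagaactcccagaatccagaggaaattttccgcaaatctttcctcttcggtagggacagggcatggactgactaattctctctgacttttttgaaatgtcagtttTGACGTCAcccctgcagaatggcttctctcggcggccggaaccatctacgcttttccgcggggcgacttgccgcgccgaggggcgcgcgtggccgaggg
Irs1: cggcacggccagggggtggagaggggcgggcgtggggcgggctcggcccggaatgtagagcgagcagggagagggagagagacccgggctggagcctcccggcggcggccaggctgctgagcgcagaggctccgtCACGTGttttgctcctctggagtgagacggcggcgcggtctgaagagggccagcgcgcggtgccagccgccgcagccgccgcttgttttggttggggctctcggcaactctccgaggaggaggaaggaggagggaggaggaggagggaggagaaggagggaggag
Irs2: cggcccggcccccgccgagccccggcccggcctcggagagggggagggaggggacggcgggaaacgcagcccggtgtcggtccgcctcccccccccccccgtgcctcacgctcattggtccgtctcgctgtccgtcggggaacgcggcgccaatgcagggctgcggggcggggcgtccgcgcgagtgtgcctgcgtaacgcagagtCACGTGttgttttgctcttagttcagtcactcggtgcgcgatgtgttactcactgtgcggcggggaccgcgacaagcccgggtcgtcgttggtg
The windows differed in composition, with 78.3% G and C for Rictor, 56.7% for Flcn, 71.3% for Irs1 and 72% for Irs2. The Rictor window held neither motif nor a FoxO match (TGTTTAC or GTAAACA). Flcn alone among the 37 genes with a RefSeq window held a CRE, 49 bases before its start, against 1.79% of 32851 mouse windows. An E-box was found in the windows of Irs1, Irs2, Lamtor1, Lamtor4, Rheb and Rragc, and in 7.15% of all windows, and a FoxO match in those of Akt1 and Sesn1, against 3.65% of all windows. The 37 genes had 44 windows with a median of 63% G and C, against 52.7% for all windows. These are matches of letters, not measured binding sites.

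Of the 41 genes, 25 held at least 50 UMIs in OPCs and diffOPCs together. Rictor, Irs1 and Flcn were called higher in diffOPCs, and none was lower, against 6.65% of 7009 genes higher and 12.6% lower. Their median log2 ratio was -0.12 and that of all genes -0.17. Of the 25, 9 had a ratio above 1 and 16 below it, and Igf1r (log2 -0.88), Pik3r1 (-0.83) and Pik3ca (-0.78) were the lowest. The log2 ratio of Igf1r was -0.20, -0.97, -1.28 and -1.40 in numbers 1 to 4, with OPCs at 25.6, 25.5, 55.9 and 60.5 CPM. The other 16 of the 41 genes, Mtor (11 and 22 UMIs) and Rptor (14 and 14 UMIs) among them, held too few UMIs to be compared.

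In MOLs the GTPase gene Rheb was lower than in the earlier stages. Rheb, the direct activator of mTORC1, was at 125, 136, 116 and 128 CPM in MOLs of numbers 1 to 4, 308, 266, 287 and 356 CPM in diffOPCs and 340, 341, 413 and 397 CPM in OPCs. Every MOL value lay below every value of the other stages, and MOLs had the lowest level of the 13 types. The MOL level was 0.343 times that of OPCs (0.303 to 0.389) and 0.411 times that of diffOPCs (0.361 to 0.469). Lamtor3, a Ragulator subunit, was at 42.9 CPM in MOLs and 102 CPM in OPCs, a ratio of 0.422 (0.336 to 0.533). Its values by number ran from 40.1 to 44.5 CPM in MOLs and from 88.5 to 120 CPM in OPCs, without overlap, but in thinned cells the log2 ratio was -0.75, under the threshold. Sesn3, a sestrin that restrains mTORC1, was at 32.6 CPM in MOLs and 95.9 CPM in OPCs, a ratio of 0.340 (0.265 to 0.437), again without overlap between numbers (21.8 to 45.0 and 55.9 to 128 CPM).

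These were the 3 genes called lower among 32 tested, with 23.4% of 8645 genes called lower in MOLs, and the median log2 ratio of the 32 was -0.47 against -0.49 for all genes. The counts are relative to each stage's total: the 10 most abundant genes took 24.4% of UMIs in MOLs, 13.8% in diffOPCs and 11.9% in OPCs. Scaling by the median of gene ratios in place of total UMIs moved the log2 ratios, before the 10 CPM are added, of MOLs against OPCs up by 0.85, of MOLs against diffOPCs by 0.48 and of diffOPCs against OPCs by 0.31; with the 10 CPM, low genes moved less. On that scale Rheb (-0.66), Lamtor3 (-0.34) and Sesn3 (-0.60) were still lower in MOLs than in OPCs but no longer called.

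Against diffOPCs, 5 of 32 tested genes were lower in MOLs (Rictor, Rheb, Irs1, Irs2 and Flcn) and 1 was higher, with 13.7% of 8111 genes lower and 7.61% higher and medians of -0.21 and -0.28. On the scale of median gene ratios Rictor (-1.70) and Irs1 (-1.72) stayed past the threshold, and Rheb (-0.76), Irs2 (-0.77) and Flcn (-0.65) did not.

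Ddit4 was the gene called higher in MOLs, 1 of 32 against 7.94% of genes in the comparison with OPCs. Ddit4 (also named Redd1) encodes an inhibitor of mTORC1 that acts through the TSC proteins and is induced by hypoxia, glucocorticoids and other stresses. It was at 321, 326, 104 and 156 CPM in MOLs, 76.3, 92.7, 96.6 and 99.7 CPM in diffOPCs and 109, 112, 60.2 and 75.6 CPM in OPCs. MOLs of numbers 1 and 2 were high, while MOLs of number 3 (104 CPM) lay within the range of the OPC values. Over all cells the ratio of MOLs to OPCs was 2.34 (1.93 to 2.86) and to diffOPCs 2.41 (1.99 to 2.95). In number 3 alone the log2 ratio to diffOPCs was 0.10, against 1.94 in number 1, and without number 1 the pooled value was 0.85, under the threshold.

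Ddit4 was the only one of the 41 genes whose level over all cells differed 2-fold or more between barcode numbers, with 152, 170, 73.2 and 89.5 CPM (1 of 41 genes or 2.44%, against 8.74% of 13953 genes). The median ratio of the highest to the lowest number was 1.25 for the 41 genes and 1.28 for all genes. The spread of Ddit4 was not the same in all types (the plot of Ddit4 by type and number). In microglia, the resident immune cells of the brain, Ddit4 was at 159, 221, 9.63 and 24.2 CPM (69, 104, 2 and 6 UMIs). In vascular and leptomeningeal cells (VLMCs, fibroblast-like cells of the vessels and meninges) it was at 322, 343, 71.4 and 68.8 CPM. In macrophages it was at 185, 144 and 10.4 CPM in numbers 1 to 3 and undetected in number 4. There 3 of 68474 UMIs, the floor taken for a count of 0, are 43.8 CPM. Numbers 1 and 2 were the higher ones in these 3 types and in endothelial cells (387, 667, 81.2 and 156 CPM). Neurons (40.2, 38.1, 34.7 and 35.9 CPM), astrocytes (260, 248, 199.5 and 234 CPM) and diffOPCs differed less between numbers, with numbers 1 and 2 again the higher ones in neurons and astrocytes but not in diffOPCs.

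**Figure D2:**
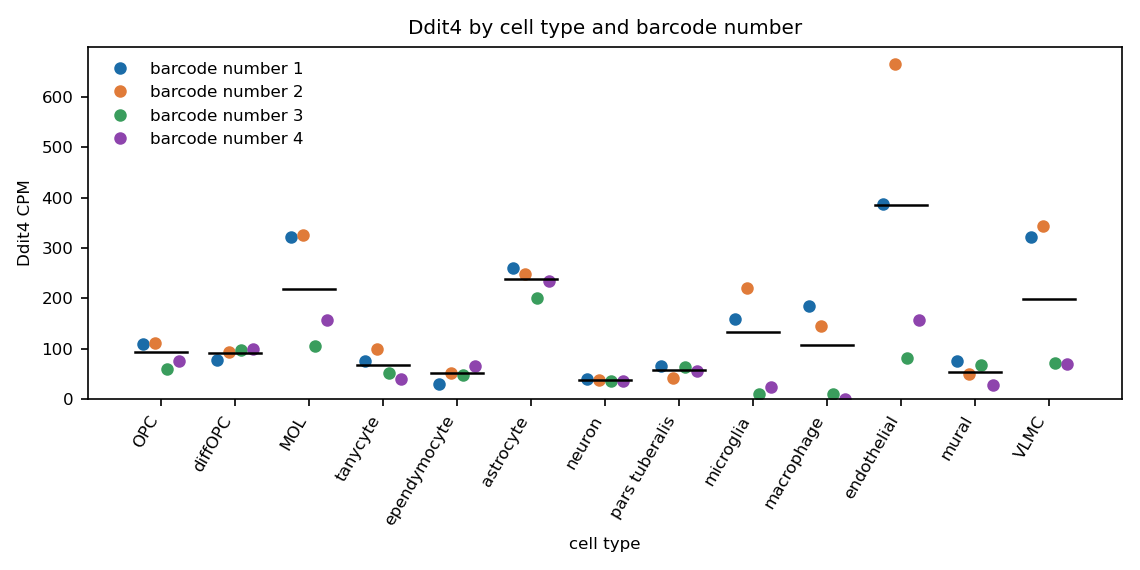
Ddit4 CPM (vertical axis) in the 13 cell types (horizontal axis); points are the 4 barcode numbers and black lines all cells of a type. In microglia numbers 1 and 2 reached 159 and 221 CPM and numbers 3 and 4 stayed at 9.63 and 24.2 CPM, whereas in neurons all 4 lay between 34.7 and 40.2 CPM.

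Heat shock and early response genes also differed between the numbers. The 9 heat shock genes summed to 1956, 1811, 3476 and 2980 CPM in microglia and to 3889, 3950, 6262 and 6396 CPM in MOLs, with numbers 3 and 4 the higher ones. The 14 early response genes summed to 5183, 6040, 2398 and 3230 CPM in microglia and to 1574, 2576, 6532 and 6725 CPM in VLMCs, so that numbers 1 and 2 were the higher ones in microglia and numbers 3 and 4 in VLMCs. The median mitochondrial share of microglial UMIs was 1.66%, 1.51%, 1.43% and 1.55%. The part of these signals in the Ddit4 levels was not tested. Since the numbers carry no label, feeding group could not be told apart from cell stress here. Pik3r1, which encodes a regulatory subunit of PI3-kinase, had a smaller spread over all cells, at 193, 198, 151 and 140 CPM.

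Across all 13 types, 17 of the 41 genes (41.5%) lay at least 1 log2 unit above the median type in some type, against 56% of 13821 genes (the map of the 41 genes by type). The count was 4 genes (9.76% of the 41) in diffOPCs, neurons, endothelial cells and VLMCs, where 8.53%, 12.3%, 9.66% and 8.05% of all genes passed. It was 3 genes in ependymocytes (12.8% of all genes), 2 in tanycytes (7.66%), microglia (8.1%) and macrophages (7.97%), and 1 in OPCs (12.1%), MOLs (6.59%), astrocytes (7.87%), pars tuberalis cells (9.26%) and mural cells (7.66%). The share of the 41 genes was above that of all genes in diffOPCs, VLMCs and, narrowly, endothelial cells and below it in the other 10 types, with the widest gap in OPCs (2.44% of the 41 against 12.1%). The other 24 genes passed it nowhere.

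**Figure D3:**
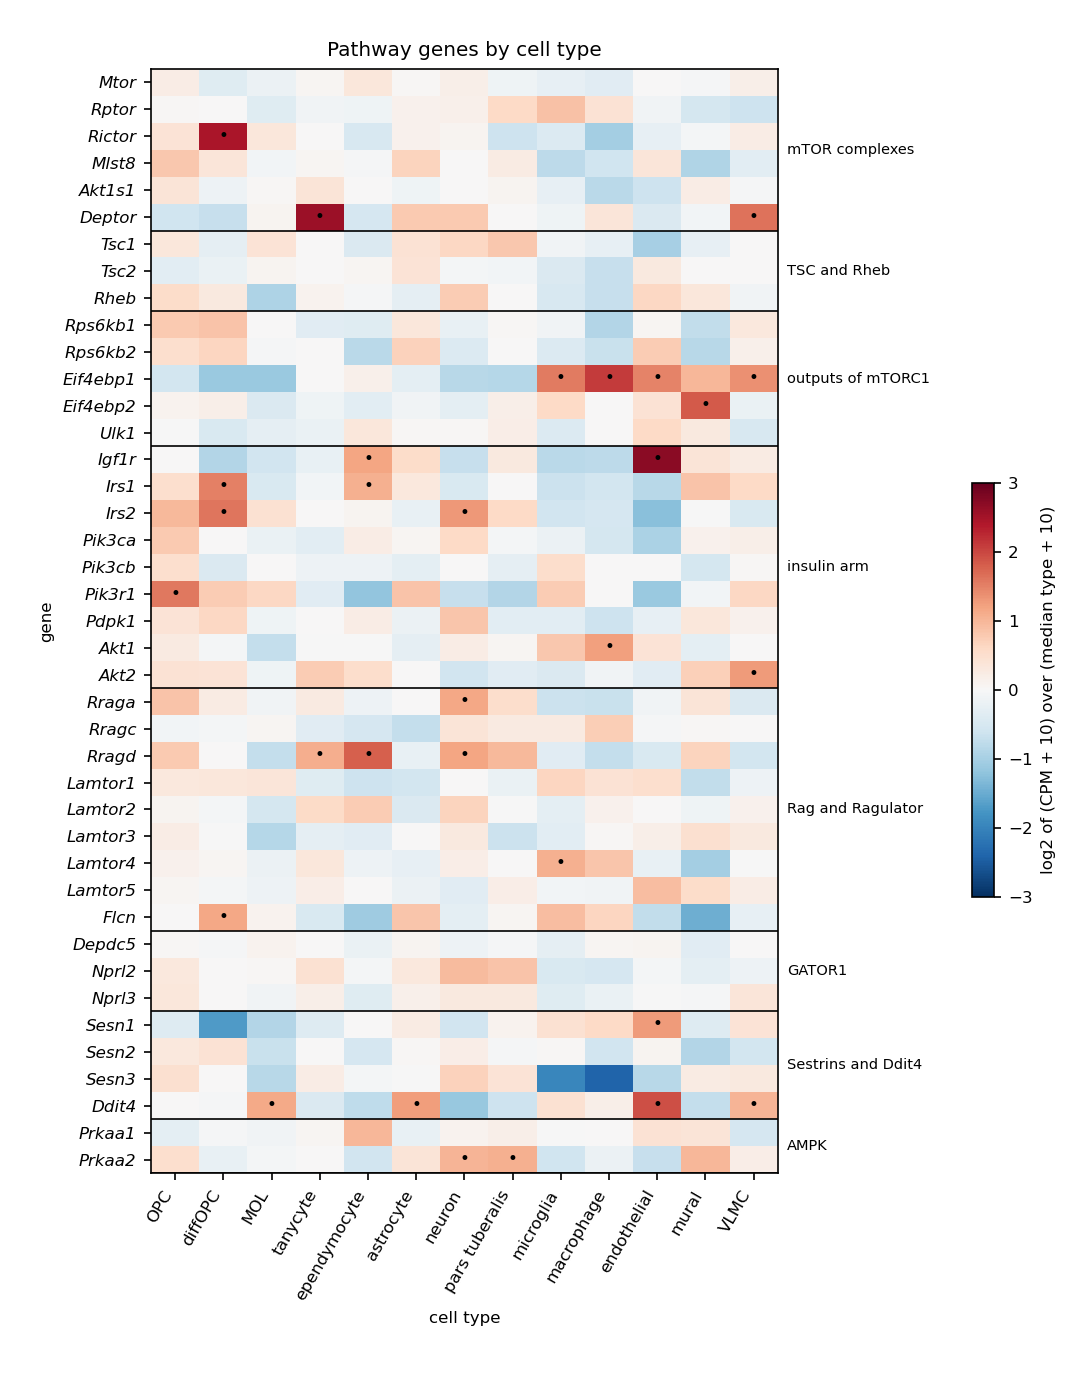
Map of the 41 genes (rows, ordered by role) in 13 cell types (columns); colour is log2 of (CPM + 10) over (the gene's median type + 10), and dots mark the 30 values of at least 1. The deepest colours were Igf1r in endothelial cells (2.70), Deptor in tanycytes (2.57) and Rictor in diffOPCs (2.45).

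The core genes of mTORC1 passed the threshold above the median type nowhere, though Rptor and Mlst8 varied between types. Mtor, the kinase itself, ranged from 8.59 CPM in diffOPCs to 20.3 CPM in ependymocytes around a median type of 13.95 CPM. Rptor, which encodes raptor, ranged from 3.69 CPM in VLMCs to 28.7 CPM in microglia, with intervals that did not meet (0.762 to 10.8 and 20.4 to 39.2 CPM). Akt1s1, which encodes the mTORC1 inhibitor PRAS40, ranged from 31.6 CPM in macrophages to 85.4 CPM in OPCs. Mlst8, a subunit of both complexes, was highest in OPCs at 22.6 CPM, a level that rested on numbers 1 and 2. It was at 37.3, 35.1 and 4.30 CPM in OPCs of numbers 1 to 3 and undetected in number 4, where 3 UMIs are 11.3 CPM. In mural cells 0 UMIs of it were seen. There 3 UMIs, the floor taken for a count of 0, are 13.3 CPM.

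Deptor, an inhibitor that binds mTOR in both complexes, was the exception among the subunit genes besides Rictor. In tanycytes, the radial glia-like cells that line the floor of the third ventricle, it was at 120, 130, 99.2 and 81.5 CPM in numbers 1 to 4, or 109 CPM over all cells (99.9 to 118; 571 UMIs in 355 cells). VLMCs came next with 51.7 CPM (37.3 to 69.9), an interval that does not meet that of tanycytes. The remaining types were at 24.6 CPM or less, with 3 UMIs in diffOPCs and 4 in OPCs. Among tanycytes, the cluster of 538 cells whose leading genes included Mia and Col25a1 held 188 CPM (171 to 205) and the other cluster, of 733 cells, 32.7 CPM (26.3 to 40.3). An unnamed cluster of 366 cells led by Mia, Mt3 and Mlc1, which scored on tanycyte and ependymocyte markers, held 36.6 CPM.

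Of the brake on Rheb, Tsc1 ranged from 9.30 CPM in endothelial cells to 57.6 CPM in pars tuberalis cells and Tsc2 from 4.51 CPM in macrophages to 20.8 CPM in astrocytes, and neither was called in any type. Rheb itself was highest in neurons (426 CPM, 410 to 442), and the endothelial value (386 CPM, 307 to 479) could not be told from it within counting error.

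**Figure D4:**
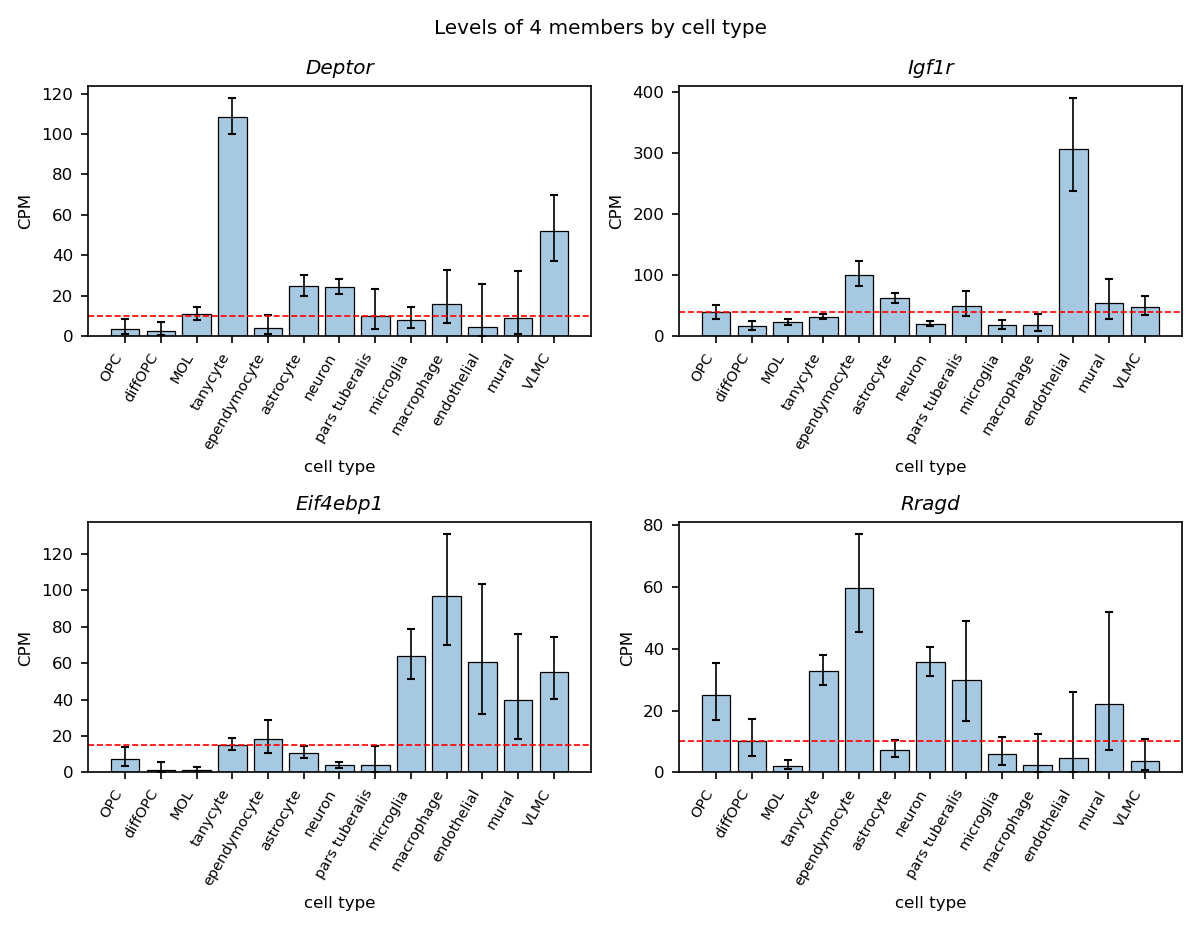
CPM (vertical axes) of Deptor, Igf1r, Eif4ebp1 and Rragd in 13 cell types (horizontal axes); bars are all cells of a type, error bars are exact Poisson 95% intervals and the dashed line is the median type. Deptor was highest in tanycytes (109 CPM), Igf1r in endothelial cells (307 CPM), Eif4ebp1 in macrophages (97.0 CPM) and Rragd in ependymocytes (59.8 CPM).

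In the insulin arm, Igf1r, the receptor of IGF1, was at 351, 252, 325 and 343 CPM in endothelial cells, or 307 CPM (237 to 391) over 84 cells, against a median type of 38.7 CPM. Ependymocytes followed at 100.3 CPM (81.5 to 122), with numbers between 90.3 and 107 CPM. All 4 endothelial values were thus more than 2 times any ependymocyte value. No UMI of Irs1 or Irs2 was found in endothelial cells, where 3 UMIs, the floor taken for a count of 0, are 13.95 CPM. Irs1 was also above the median type in ependymocytes (27.4 CPM) and Irs2 in neurons (48.3 CPM). The ependymocyte value of Irs1 fell under the threshold without number 1 or 4 (log2 0.80 and 0.78). It also did so by the mean over cells (0.76) and at Leiden resolution 2 (0.98).

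Pik3r1 was at 498, 427, 352 and 333 CPM in OPCs, or 418 CPM (382 to 455), and the next type, astrocytes, held 247 CPM. This lead was past the threshold by CPM (log2 1.58 above the median type) but not on the scale of median gene ratios (0.80). Akt1 was highest in macrophages (56.4 CPM, 36.5 to 83.3) and Akt2 in VLMCs (64.0 CPM, 47.8 to 83.9). The macrophage value of Akt1 drew on number 1 (85.6 CPM against 41.7 to 43.8 CPM in the others) and fell to a log2 value of 0.92 without it. Pik3ca (9.30 to 54.0 CPM), Pik3cb (0 to 11.0 CPM) and Pdpk1 (15.8 to 60.8 CPM) were called in no type.

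Among the outputs of mTORC1, Eif4ebp1, a repressor of cap-dependent translation that mTORC1 inactivates, was high in immune and vascular types. It was at 78.5, 123, 83.4 and 102 CPM in macrophages and 57.6, 63.8, 72.2 and 68.5 CPM in microglia. Neurons held 4.09 CPM (2.69 to 5.94) and MOLs 1.56 CPM (0.629 to 3.22) of it, so the ranges lay far apart. VLMCs (55.4 CPM) and endothelial cells (60.5 CPM from 13 UMIs) were also called, but with cells thinned to 1000 UMIs the endothelial log2 value fell from 1.48 to 0. Its relative Eif4ebp2 was above the median type in mural cells only, at 66.7 CPM from 15 UMIs, where number 3 held 16.9 CPM and the others 73.8 to 94.0 CPM, and this call too was lost in thinned cells (log2 0.89). The S6 kinase genes Rps6kb1 (31.6 to 127 CPM) and Rps6kb2 (8.89 to 46.5 CPM) and the autophagy kinase Ulk1 (3.69 to 18.6 CPM) were called nowhere.

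Of the amino acid arm, Rraga was highest in neurons, with 256, 323, 276 and 288 CPM by number, or 284 CPM (271 to 297), against a median type of 121 CPM. Its log2 value of 1.17 fell to 0.94 on the scale of median gene ratios and to 0.76 in thinned cells. Rragd was highest in ependymocytes (65.2, 56.5, 80.8 and 41.4 CPM; 59.8 over all) and also called in neurons (35.7 CPM) and tanycytes (32.9 CPM), both just under the threshold by the mean over cells (log2 0.99 and 0.94). MOLs held 2.23 CPM of Rragd (1.07 to 4.11), the lowest value of the 13 types together with macrophages (1 UMI). MOLs were thus low in Rragd beside the cells of the ventricle wall and neurons, but not beside these alone. OPCs held 25.0 CPM of it (ratio of MOLs to OPCs 0.0894, 0.0391 to 0.187, too few UMIs for a call). The cluster of 89 cells named pars tuberalis held 29.4 CPM (16.4 to 48.4). Rragc, its partner in the same role, ranged from 22.6 CPM in astrocytes to 79.0 CPM in macrophages and was called nowhere.

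The Ragulator scaffold genes Lamtor1 to Lamtor5 were detected in every type, and 1 value was called. This was Lamtor4 in microglia at 258, 313, 246 and 258 CPM, or 275 CPM (248 to 304). It was just under the threshold without number 2 (log2 0.99), in thinned cells (0.92) and at Leiden resolution 0.5 or 2 (0.998 at each). Lamtor1 ranged from 71.1 to 200.01 CPM, Lamtor2 from 122 to 314 CPM, Lamtor3 from 42.9 to 124 CPM and Lamtor5 from 99.3 to 251 CPM. Microglia (65.4 CPM) and astrocytes (60.7 CPM) came next to diffOPCs for Flcn, whose call above the median type in diffOPCs was lost in thinned cells (log2 1.16 to 0.90). The genes of GATOR1, which turns the Rag GTPases off when amino acids are scarce, were called nowhere: Depdc5 ranged from 4.45 to 9.60 CPM and Nprl3 from 5.07 to 14.8 CPM. Nprl2 lay just under the threshold in neurons (67.2 CPM, 61.1 to 73.7; log2 0.96 above the median type) and was lowest in macrophages (18.1 CPM, 7.79 to 35.6).

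Among the stress inputs, Sesn1, a target of p53, was called in endothelial cells (93.0 CPM, 56.8 to 144, from 20 UMIs), a call lost in thinned cells (log2 0.74). Sesn3 was at 113 CPM in neurons (105 to 121) and only 9.56 CPM in microglia (5.09 to 16.3), and macrophages held 2 UMIs of it. Sesn2, the sestrin that senses leucine, stayed at 14.8 CPM or less. Of the catalytic subunits of AMPK, Prkaa2 was called in neurons (29.8, 26.9, 21.9 and 18.2 CPM; 23.1 over all) and, from 12 UMIs, in pars tuberalis cells (23.8 CPM). The call in neurons was lost on the scale of median gene ratios (log2 0.89) and without number 1 (0.87) or 2 (0.97). That in pars tuberalis cells was lost on the same scale (0.92), by the mean over cells (0.96), in thinned cells (0.51) and without number 4 (0.70). Prkaa1 ranged from 4.92 CPM in VLMCs to 32.4 CPM in ependymocytes without a call. Ddit4, as described above, was called in endothelial cells (386 CPM), astrocytes (238 CPM), MOLs (218 CPM) and VLMCs (199 CPM), the last under the threshold without number 1 (log2 0.84) or 2 (0.73).

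Closely related genes took very different shares of their summed UMIs from type to type. The share of Sesn1 in the 3 sestrins was 88.9% in macrophages (exact 95% binomial interval 70.8 to 97.6%) and 72.5% in microglia (62.2 to 81.4%), and 3.70% in diffOPCs (1.02 to 9.21%). Eif4ebp1 made up 89.6% of the 4E-BP pair in macrophages (77.3 to 96.5%) and 10.0% in diffOPCs (1.23 to 31.7%, 20 UMIs). For Rragc in the pair with Rragd the share was 95.3% in MOLs (91.5 to 97.7%) and 31.4% in ependymocytes (21.8 to 42.3%).

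The share of Akt1 in the pair with Akt2 was 76.1% in microglia (64.5 to 85.4%) and 68.9% in neurons (62.4 to 74.9%), against 30.6% in tanycytes (25.5 to 36.0%) and 22.4% in VLMCs (13.1 to 34.2%). By number the neuronal share of Akt1 was 69.0%, 61.5%, 71.9% and 70.1%, and that of tanycytes 31.2%, 31.7%, 26.4% and 32.8%, so the types kept apart in each number. Irs1 took 6.18% of the Irs pair in neurons (3.86 to 9.29%) and 64.3% in ependymocytes (48.0 to 78.4%), and Prkaa1 35.7% of the AMPK pair in neurons (29.6 to 42.2%) and 97.0% in ependymocytes (84.2 to 99.9%). In all, 6 of the 8 sets had a share that ranged over more than 50 percentage points among types with at least 20 UMIs, and 3 with cells thinned to 1000 UMIs. The shares of Rps6kb1 (60 to 84.5% of its pair) and Pik3ca (67.4 to 97.2%) ranged less among the types with enough UMIs. The library reads transcript ends, so a share may be compared between types but not read as the ratio of whole transcripts.

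**Figure D5:**
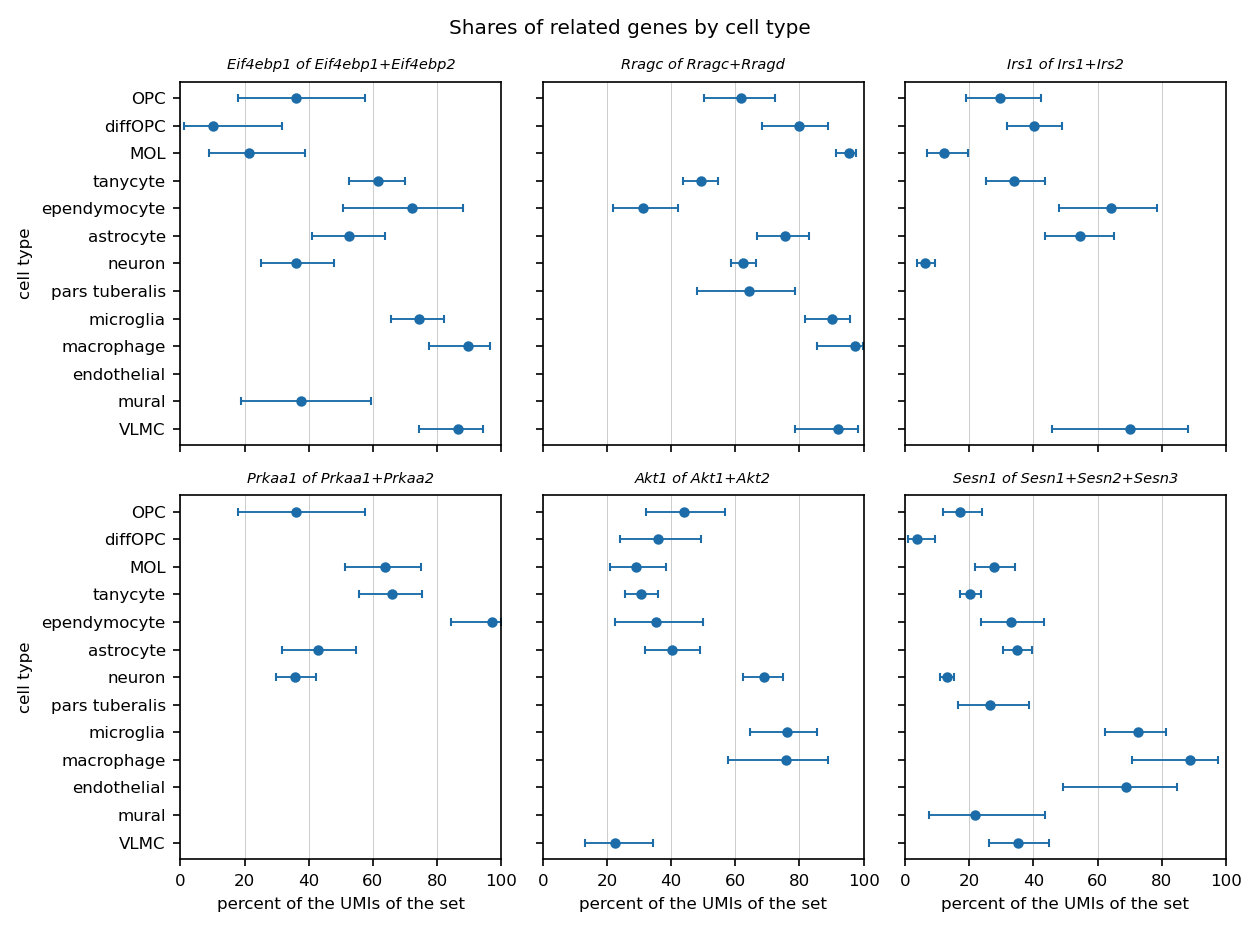
Share of 1 gene in the UMIs of its set (horizontal axes, percent) in each cell type with at least 20 UMIs of the set (vertical axis), for 6 sets; bars are exact binomial 95% intervals. Rragc took 95.3% in MOLs and 31.4% in ependymocytes, and Akt1 76.1% in microglia and 22.4% in VLMCs.

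Other genes of the pathway, from a list of 63, were examined in the same lineage comparisons. Between OPCs and diffOPCs 37 passed the UMI minimum, 6 were higher in diffOPCs and 1 lower, with a median log2 ratio of -0.02, where 6.65% of all genes were higher and 12.6% lower. Pdcd4, a translation repressor that S6 kinase marks for destruction, was at 1181, 1024, 1448 and 1376 CPM in diffOPCs and 90.8, 127, 129 and 159 CPM in OPCs, with 38.9 CPM over all MOLs. Pik3r3, another regulatory subunit of PI3-kinase, was at 159 CPM in diffOPCs, 12.1 CPM in OPCs and 12.1 CPM in MOLs. Mitf, a lysosomal transcription factor controlled by the folliculin and Rag branch, was at 61.7 CPM in diffOPCs and 12.9 CPM in OPCs, and Castor2, a relative of the arginine sensor, was lower at 10.1 against 59.6 CPM. Pdcd4 and Pik3r3 were thus high in the same stage as Rictor.

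MOLs differed from OPCs in 4 genes of that list that were higher and 6 that were lower, among 46 tested with a median of -0.30, where 7.94% of all genes were higher and 23.4% lower. Prr5l, which encodes a protein that binds mTORC2, was at 164, 156, 167 and 143 CPM in MOLs, with 4 UMIs in all diffOPCs and 1 UMI in all OPCs. The ratio of MOLs to OPCs was 195 with a counting interval of 34.9 to 7727, so its size is poorly bounded above. Sgk1, the serum and glucocorticoid regulated kinase that mTORC2 activates, was at 1634, 1644, 703 and 603 CPM in MOLs, 745, 742, 648 and 854 CPM in diffOPCs and 233, 233, 176 and 132 CPM in OPCs. As with Ddit4, numbers 1 and 2 were high in MOLs and not in diffOPCs.

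Of 18 subunits of the lysosomal proton pump (v-ATPase), on which the amino acid signal depends, 17 were tested in each comparison. Atp6v0a2 was higher in diffOPCs (249 CPM) than in OPCs (36.3 CPM) and MOLs (41.1 CPM), with diffOPC values of 221 to 278 CPM by number. Atp6v0e was at 642, 644 and 143 CPM in OPCs, diffOPCs and MOLs. Atp6v0a1 was lower in diffOPCs (15.6 CPM) than in OPCs (61.3 CPM), and Atp6v1g2 was lower in diffOPCs (25.8 CPM) and MOLs (19.7 CPM) than in OPCs (63.7 CPM). Neurons held 375 CPM of Atp6v1g2. The neuron markers summed to 989, 426 and 301 CPM in OPCs, diffOPCs and MOLs, against 10629 CPM in neurons. The part of neuronal RNA in the Atp6v1g2 levels was not tested. Atp6ap2, an accessory subunit, was higher in MOLs (372 CPM) than in diffOPCs (172 CPM). In all, 1 subunit was higher and 2 lower in diffOPCs than in OPCs (6.65% and 12.6% of all genes), 0 and 2 in MOLs than in OPCs (7.94% and 23.4%), and 1 and 2 in MOLs than in diffOPCs (7.61% and 13.7%), counts near or below the shares of all genes. The medians of the 17 were 0.03, -0.18 and -0.13 in the comparisons of diffOPCs with OPCs, MOLs with OPCs and MOLs with diffOPCs.

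The 12 amino acid transporters differed in both directions: 1 of 7 tested was higher and 2 lower in diffOPCs than in OPCs (6.65% and 12.6% of all genes), and 2 of 9 were higher and 4 lower in MOLs than in OPCs (7.94% and 23.4% of all genes). Slc15a4, a lysosomal carrier of histidine and small peptides, was at 15.3, 109 and 70.4 CPM in OPCs, diffOPCs and MOLs, and Slc43a2, a carrier of large neutral amino acids, at 49.2, 77.3 and 185 CPM. In the opposite direction, Slc38a3 was at 68.5 CPM in OPCs, 8.59 CPM in diffOPCs and 2.01 CPM in MOLs, and Slc7a10 at 87.1, 14.1 and 17.2 CPM. Astrocytes held 1405 CPM of Slc7a10. The astrocyte markers summed to 796, 222 and 528 CPM in OPCs, diffOPCs and MOLs, against 17478 CPM in astrocytes. The part of astrocyte RNA in these levels was not tested. Slc7a5, a leucine carrier, was at 33.05 CPM in OPCs and 2.23 CPM in MOLs, and the glutamine carrier Slc38a1 at 46.8, 51.5 and 7.82 CPM. Of 14 genes of the amino acid response, 11 were tested in MOLs against OPCs, with 2 higher and 1 lower (7.94% and 23.4% of all genes). Phgdh and Psat1, enzymes of serine synthesis, were higher in MOLs (851 and 584 CPM) than in OPCs (165 and 135 CPM). Asns, asparagine synthetase, was lower (6.03 against 63.7 CPM).

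Beside these differences, early response genes, immediate early transcription factors and their like, summed to 1200.2 CPM in OPCs, 318 CPM in diffOPCs and 1109 CPM in MOLs. Of them, 7 of 8 tested were lower in diffOPCs than in OPCs (median log2 ratio -1.89, with 12.6% of all genes lower) and 6 of 9 were lower in MOLs than in OPCs (median -1.80, with 23.4% of all genes lower). Jund (438 and 130 CPM), Fos (85.4 and 14.1 CPM), Junb (57.2 and 5.46 CPM), Egr1 (39.5 and 3.12 CPM) and Ier2 (84.6 and 8.59 CPM) gave the OPC and diffOPC levels. Nr4a1 was at 49.98 CPM in OPCs, 37.5 CPM in diffOPCs and 4.69 CPM in MOLs. The heat shock genes summed to 3883, 4971 and 5229 CPM in the 3 stages, and Hspa1a was at 4.03, 7.03 and 140 CPM, Hsp90aa1 at 715, 599 and 1594 CPM, Hspe1 at 328, 447 and 139 CPM and Hspd1 at 283 CPM in diffOPCs and 135 CPM in MOLs. The part of these signals in the stage differences of the 41 genes was not tested.

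Within the stages, re-clustering divided diffOPCs into groups of 54 and 85 cells. Rictor was at 115 CPM (83.1 to 155) in the smaller group, led by Bmp4, Tnr and Vxn, and at 199 CPM (171 to 230) in the larger, led by Bmp4, Tnr and Marcks. Flcn was at 50.8 CPM (30.6 to 79.3) and 90.4 CPM (71.9 to 112) in these groups, and Irs2 at 85.5 CPM (58.5 to 121) and 51.8 CPM (38.1 to 68.9). The intervals of Flcn and Irs2 overlapped and those of Rictor did not. Among the 5 MOL groups Rictor was at 52.6 CPM (40.2 to 67.7) in 115 cells led by Opalin and Hspa1a and between 18.7 and 33.4 CPM in the others, and the same group had the highest Ddit4 level (289 CPM, against 128 to 219 CPM).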

How the data were processed

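The sources used here describe 4 libraries of pooled ME cells (10x Genomics 3′ chemistry, version 2), 2 from each feeding group, listed as 32 sample records. The deposited table holds UMI counts per gene and cell, which the authors made with Cell Ranger 2.0 on mm10; all counts were whole numbers and were used as deposited. Whether counting used strand is not given in the sources used here; 15 of the 41 genes overlap another annotated gene, 14 of them on the opposite strand. Symbols came from the table of gene names, which matched 27645 of 27998 identifiers.

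The records carry feeding groups but the barcode numbers do not, so no record entered a comparison. The 41 genes, the other lists and the alternatives were chosen with earlier results of these data known. All genes were described by a fixed rule: those past 1 log2 unit in a stage comparison or above the median type in full, others by range, and at most 6 genes per other list by size of ratio.

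Counts were scaled per cell and log-transformed, 2000 variable genes and 30 principal components were taken, and 15 neighbours were clustered by Leiden at resolution 1 (scanpy 1.11.5, igraph 0.11.9). The 24 clusters were named from 13 marker lists (score of at least 0.3, 1.5 times the next list, 3 markers at least 4-fold above the median cluster) and left unnamed where the top 10 genes held more markers of another list; lineage cells were clustered again into 9 groups and staged. Scrublet called 50 doublets (0.836%), kept in the main values. CPM was computed from summed UMIs with a pseudocount of 10; intervals are exact Poisson, binomial or conditional binomial at 95% and cover counting error only. No p-value was computed, since the cells of 1 pooled sample are not replicates. The comparison was tested on simulated counts of OPCs and diffOPCs: of 200 genes changed 4-fold among 7009, 96.5% were called, and 0% of unchanged genes. Smaller changes, such as the ratios of Irs1 (2.70) and Flcn (2.64), were not simulated. The result therefore gives no error rate for calls near the threshold. Alternatives changed the scaling, the per-cell mean, depth, the clustering, cell filters, the pseudocount, the UMI minimum and left out each barcode number. One UMI is 0.151 CPM in neurons and 4.65 CPM in endothelial cells. Promoter windows came from RefSeq.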

Additional observations from a re-analysis of the deposited data

How the results depend on the processing

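No paired analysis was possible because the replicate numbers in the labels are tied to no cells of the table, so fasted and refed libraries could not be matched. Stages were instead set side by side within each of the 4 barcode numbers, and these differences are given as values with no test. Leaving out 1 barcode number at a time gave 2 to 3 genes higher and 0 to 1 lower in diffOPCs than in OPCs (6.90% to 7.45% and 12.1% to 12.5% of all genes), 1 higher and 3 to 6 lower in MOLs than in OPCs (8.47% to 8.92% and 23.1% to 23.7%), and 0 to 2 higher and 3 to 5 lower in MOLs than in diffOPCs (7.79% to 8.50% and 14.1% to 14.8%). It gave 17 to 19 genes above the median type, 29 to 36 pairs of gene and type (30 with all cells) and 5 to 6 sets of related genes with a range over 50 percentage points.

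The pseudocount decided many of the calls. With 50 CPM, 1 gene was higher in diffOPCs than in OPCs, 0 higher and 1 lower in MOLs than in OPCs, 0 higher and 2 lower in MOLs than in diffOPCs, and 6 genes in 7 pairs lay above the median type; of all genes, 3.74% were then higher in diffOPCs than in OPCs, 4.56% higher and 8.61% lower in MOLs than in OPCs, and 3.39% higher and 5.72% lower in MOLs than in diffOPCs. With 1 CPM, 1 gene was lower in diffOPCs than in OPCs, 2 were higher and 7 lower in MOLs than in OPCs, 3 higher in MOLs than in diffOPCs, and 52 pairs lay above the median type, with 16.2%, 9.91%, 32.8% and 10.4% of all genes in these 4 stage counts. By median of gene ratios, 0 genes were lower in MOLs than in OPCs, and 3 were higher and 2 lower in MOLs than in diffOPCs (10.8%, 11.7% and 7.69% of all genes). With cells thinned to 1000 UMIs, 2 genes were lower in diffOPCs than in OPCs, 2 higher in MOLs than in OPCs, 3 higher in MOLs than in diffOPCs (17.5%, 8.92% and 11.6% of all genes), and 3 sets of related genes passed 50 percentage points. A minimum of 200 UMIs left 1 gene higher in diffOPCs than in OPCs and 3 lower in MOLs than in diffOPCs (10.3% and 14.95% of all genes), and with no minimum 1 was lower in diffOPCs than in OPCs (4.99%). Rictor in diffOPCs kept its call under each alternative. Of 821 values of single genes and shares under alternatives, 681 stayed within the counting interval, 140 moved beyond it and 0 changed direction. The 681 include values that could not move, since the UMI minimum decides which genes are counted and not their level. The cell filter left the stage shares of all genes unchanged, and a share of related genes has no direction to change. These counts are therefore not a measure of stability.

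Depth limits the rarer genes: 3 UMIs are 13.95 CPM in endothelial and 13.3 CPM in mural cells. The cells come from 2 pools of mice, so intervals do not cover variation between animals, and names rest on rebuilt clusters.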

Other observations

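The 4 barcode numbers carry no label of feeding group or library, and in some types their Ddit4 values fell into separate clusters: 159 and 221 CPM against 9.63 and 24.2 CPM in microglia, 322 and 343 CPM against 71.4 and 68.8 CPM in VLMCs, and 321 and 326 CPM against 104 and 156 CPM in MOLs, for numbers 1 and 2 and numbers 3 and 4. Sgk1 showed the same order in MOLs, with 1634 and 1644 CPM against 703 and 603 CPM. The summed heat shock genes over all cells were at 3602, 3443, 5408 and 5240 CPM in numbers 1 to 4. In neurons (40.2 and 38.1 against 34.7 and 35.9 CPM) and astrocytes (260 and 248 against 199.5 and 234 CPM) Ddit4 had the same order with a smaller gap, and in diffOPCs numbers 1 and 2 were the lower ones (76.3 and 92.7 against 96.6 and 99.7 CPM).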
